A study of Homo sapiens with 12 samples.

Results

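The enzymes that add methyl groups to histones and DNA or take them off were followed in 12 RNA-sequencing libraries of LN229, an established line of human glioblastoma cells. Members were chosen by gene symbol: the KDM1 to KDM8 demethylases, the SETD, SUV39, SUV420 and SMYD1 to SMYD5 methyltransferases, the PRMT arginine methyltransferases, DNMT1 and the DNMT3 genes, TET1 to TET3, and EZH1, EZH2, EED, SUZ12, EHMT1, EHMT2, SETDB1, SETDB2, DOT1L and NSD1, leaving out KDM5D. This gave 59 of the 22257 genes in the deposited counts, and 56 of them were among the 14416 genes with enough reads to test. The other 3 were DNMT3L with 4 reads over the 12 libraries, PRMT8 with 1 read and KDM4DL with none. Cells at 80% confluence spent 24 h in RPMI medium holding 1 mM glucose alone, the same glucose plus 5 mM acetate, or 10 mM glucose without acetate, 4 libraries each. All 3 groups shared the cell line and 10% dialyzed fetal bovine serum, which carries little small-molecule nutrient of its own. Whether the replicates were grown as separate cultures is not stated, and a p therefore reflects the scatter among these libraries, which could be technical only. All cells are of 1 line, so the values describe LN229 and not glioblastoma in general.

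Histone methyltransferases and DNA methyltransferases take the methyl group from S-adenosylmethionine, which is made from methionine and ATP. Jumonji (JmjC) histone demethylases and the TET DNA dioxygenases use oxygen, iron and 2-oxoglutarate, a metabolite of the citric acid cycle, while the LSD-type demethylases use FAD. Acetate can be turned into acetyl-CoA by tumour cells, so the low-glucose medium with acetate offers a second source of that metabolite. What was measured here is the mRNA of these enzymes, not their activity or any methyl mark.

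Levels are given as CPM, counts per M (mega) counts of the library, scaled by TMM, a factor that evens out differences in library composition. Library totals ran from 24.4 to 27.2 M counts. A gene counts as called where the edgeR quasi-likelihood test gave a Benjamini-Hochberg adjusted p under 0.05 over all 14416 genes, and a log2 fold change is always the first group named minus the second, with its standard error (SE). Glioma markers of the line were present in every group, and their mean levels lay on both sides between 1 mM and 10 mM. VIM went from 5249 to 3768 CPM, CD44 from 1049 to 759, EGFR from 128 to 85.6 and OLIG2 from 24.9 to 8.47, while NES went from 452 to 1053 CPM, S100B from 86.6 to 186, SOX2 from 14.3 to 75.4 and PDGFRA from 5.48 to 42.1. The astrocyte genes GFAP and AQP4 were near 0, at no more than 1.14 and 0.129 CPM in any group mean, so LN229 lacked those markers of its labelled lineage. Of the blood and microglia markers AIF1 and CX3CR1 had at most 2 reads in any library, and PTPRC, CSF1R and ITGAM at most 18. Of the 5 endothelial markers CDH5 and PECAM1 had at most 2 reads and VWF, the highest, at most 33, and their sum was at most 1.75 CPM in every library. Summed over the list, the 6 blood and microglia markers gave 55.5 to 65.6 CPM at 1 mM, 62.7 to 69.2 with acetate and 18.6 to 22.4 at 10 mM, nearly all of it CD68, a lysosomal gene that other cells also express. Of the oligodendrocyte markers, MBP had no more than 5 reads in any library. The 6 neuronal markers summed to 421.1 to 470.4 CPM at 1 mM, 364.9 to 384.8 with acetate and 352.1 to 387.5 at 10 mM, with STMN2 at 0 in all libraries and SYT1 at a mean of 114 CPM at 1 mM and 26.6 at 10 mM. The part of these markers in the results below was not tested. A single library in each of the low-glucose groups stood apart, replicate 3 at 1 mM glucose and replicate 1 with acetate, both with low counts on long transcripts. The counts of called enzymes are given with and without both.

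Between 10 mM and 1 mM glucose, 26 of the 56 enzymes were higher and 18 were lower, among them all 3 tested DNA methyltransferases and both SUV39H enzymes on the higher side and PRMT1, PRMT3 and PRMT5 on the lower side. Over all genes tested, 33.7% were higher and 33.8% lower, beside 46.4% and 32.1% of the enzymes. This difference between the directions depended on the processing: with the trends over length and GC taken out, 25 were higher and 24 lower, where 72.8% of all genes were called. Without replicate 3 at 1 mM alone, 26 were higher and 22 lower, where 67.5% of all genes were called, and the members' median log2 fold change was 0.07. The 44 called members made 78.6% of the family against 67.5% of all genes. In 41 members (73.2%) the 4 libraries of one group all lay above the 4 of the other, against 61.5% of all genes. Most differences were small: 11 members were at least 1.5-fold higher (19.6%, against 16% of all genes) and 1, KDM6B, at least 1.5-fold lower (1.79%, against 15.6%). The median absolute log2 fold change was 0.40 over the members and 0.38 over all genes, and the signed medians were 0.14 and 0.00. In these bulk libraries, fewer cells expressing a gene and less RNA of it per cell cannot be told apart.

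The cell state around these enzymes moved too. All 15 mitosis and replication markers were higher at 10 mM, with a median log2 fold change of 1.15, and all 8 stress response markers were lower, with a median of -3.71. AURKA, a mitotic kinase, went from a mean of 76.5 CPM at 1 mM to 225 CPM at 10 mM, and HSPA5, the chaperone of the endoplasmic reticulum, averaged 13042 CPM and 1183 CPM. Of 11 hypoxia markers 5 were higher and 5 lower, with LDHA higher at 1.36 ± 0.07 and VEGFA lower at -2.63 ± 0.06. The part of these states in the enzymes' differences was not tested.

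**Figure D1:**
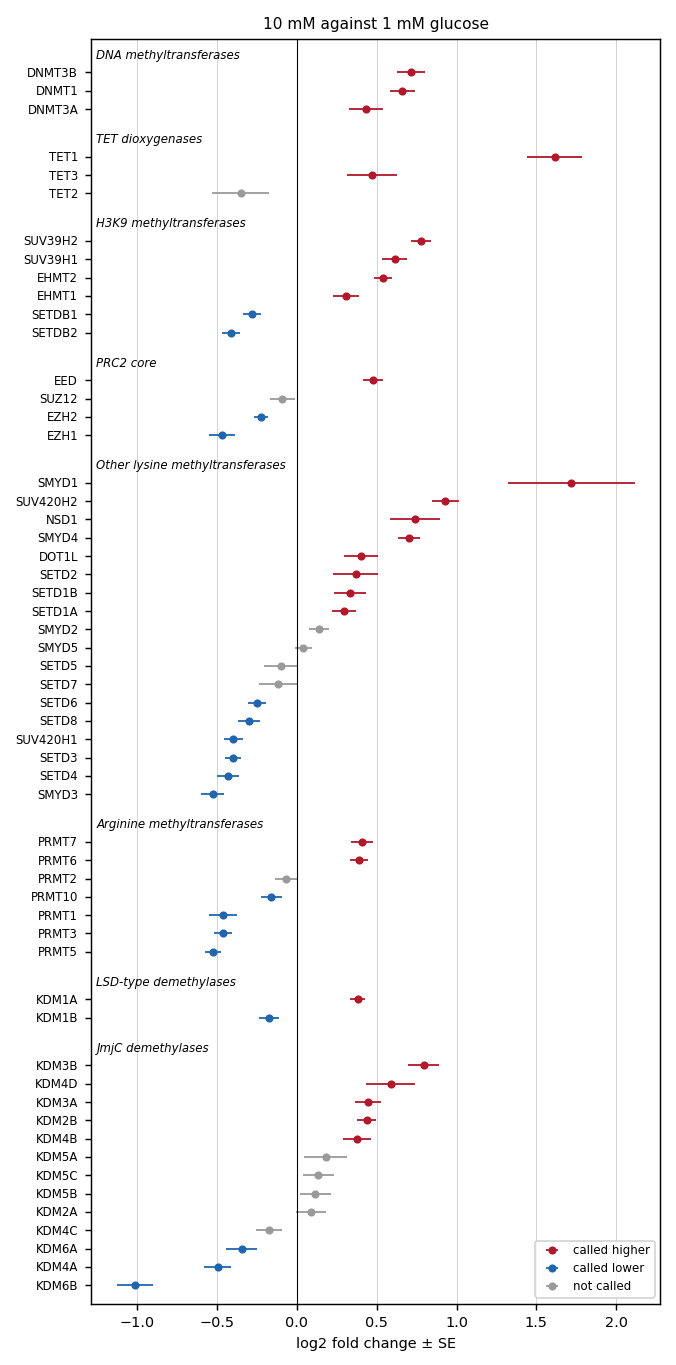
Log2 fold change of each of the 56 tested enzymes between 10 mM and 1 mM glucose, grouped by role, with bars of 1 SE. The 26 members called higher, the 18 called lower and the 12 not called lie between -1.02 for KDM6B and 1.72 for SMYD1, and most classes hold members on both sides of 0.

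All 3 tested DNA methyltransferases were higher at 10 mM, and the summed mean level of the class was 322 CPM at 1 mM, 360 CPM with acetate and 504 CPM at 10 mM. DNMT1, which copies methylation onto the new strand after replication, read 301, 299.9, 269 and 285 CPM at 1 mM glucose, 266, 325, 351 and 352 with acetate and 465, 453, 454 and 452 at 10 mM. The 10 mM libraries lay within a narrow band above all 8 others, and the log2 fold change against 1 mM was 0.66 ± 0.08 (edgeR adjusted p = 2.52e-06). DNMT3B, which places methylation de novo, read 12.9, 13.2, 10.1 and 10.6 CPM at 1 mM glucose, 9.904, 10.6, 11.8 and 11.3 with acetate and 19.9, 18.5, 18.6 and 19.98 at 10 mM. It rose by 0.71 ± 0.09 on the log2 scale (edgeR adjusted p = 4.83e-06), and the 10 mM libraries again did not overlap the rest. DNMT3A, the other de novo enzyme, read 24.7, 21.9, 17.5 and 21.5 CPM at 1 mM glucose, 21.2, 25.3, 27.6 and 26.8 with acetate and 31.2, 31.03, 26.2 and 27.3 at 10 mM. Its rise against 1 mM was smaller, at 0.43 ± 0.11 (edgeR adjusted p = 0.00209), and at 10 mM its range overlapped that with acetate. The catalytically inactive partner DNMT3L was not tested. The promoter of DNMT1, the most abundant of the class per kilobase, is printed because this enzyme works at the replication fork and the replication markers also differed. Its window from 250 bases before to 50 after the RefSeq start lies at chr19:10194904-10195203 (minus strand) in GRCh38.p14, and the capitals mark TTTCGCGC, one of the E2F sites searched, read on the opposite strand as gcgcgaaa.

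DNMT1: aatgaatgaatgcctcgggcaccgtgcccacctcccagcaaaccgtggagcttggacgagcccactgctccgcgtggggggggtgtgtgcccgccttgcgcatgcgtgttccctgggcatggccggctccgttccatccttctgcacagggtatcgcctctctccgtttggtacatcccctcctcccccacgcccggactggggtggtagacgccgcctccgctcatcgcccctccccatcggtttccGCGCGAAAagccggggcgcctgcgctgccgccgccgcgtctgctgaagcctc

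The site begins at position -2, with the start base counted as 0. DNMT1 was the only one of the 24 enzymes called higher with a RefSeq window that held any of the 4 E2F sites searched.

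The TET dioxygenases, which oxidise methylated cytosine as the first step of its removal, did not move together. TET1 read 4.76, 4.39, 2.26 and 3.100 CPM at 1 mM glucose, 4.73, 6.18, 6.397 and 6.62 with acetate and 11.9, 12.2, 10.2 and 10.1 at 10 mM. Every 10 mM library exceeded every other, and the rise against 1 mM, 1.61 ± 0.17 on the log2 scale (edgeR adjusted p = 1.12e-06), was the highest of any member averaging at least 1 CPM. TET3 read 70.9, 73.2, 41.4 and 57.8 CPM at 1 mM glucose, 47.7, 65.5, 73.2 and 72.6 with acetate and 88.8, 87.4, 77.8 and 83.5 at 10 mM, with the 10 mM libraries above both other groups. Its log2 fold change was 0.47 ± 0.16 (edgeR adjusted p = 0.0154), and 0.22 once the trends over length and GC content were taken out of each library (adjusted p = 0.0112). TET2 read 77.6, 86.9, 41.8 and 65.6 CPM at 1 mM glucose, 45.1, 63.1, 72.2 and 67.5 with acetate and 54.3, 57.3, 48.4 and 52.8 at 10 mM. Here the 3 groups overlapped, the 1 mM libraries spread most, and the log2 fold change of -0.35 ± 0.18 did not pass the test (edgeR adjusted p = 0.0970, 95% interval -0.71 to 0.00). The lowest 1 mM library was replicate 3: without that library the log2 fold change was -0.53 with an adjusted p of 0.00202, and the adjusted p ran from 1.83e-06 to 0.306 over the 24 alternatives. The ratios of TET1 and of TET3 to TET2, taken within each library, did not overlap between the 3 groups. Per kilobase of transcript, TET1 stood at 0.0556 of TET2 at 1 mM (0.0493 to 0.064), 0.101 with acetate (0.0924 to 0.109) and 0.217 at 10 mM (0.199 to 0.228). TET3 stood at 0.771, 0.89 and 1.35 of TET2, so that TET2 was the more abundant of the pair at low glucose and TET3 at 10 mM.

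**Figure D2:**
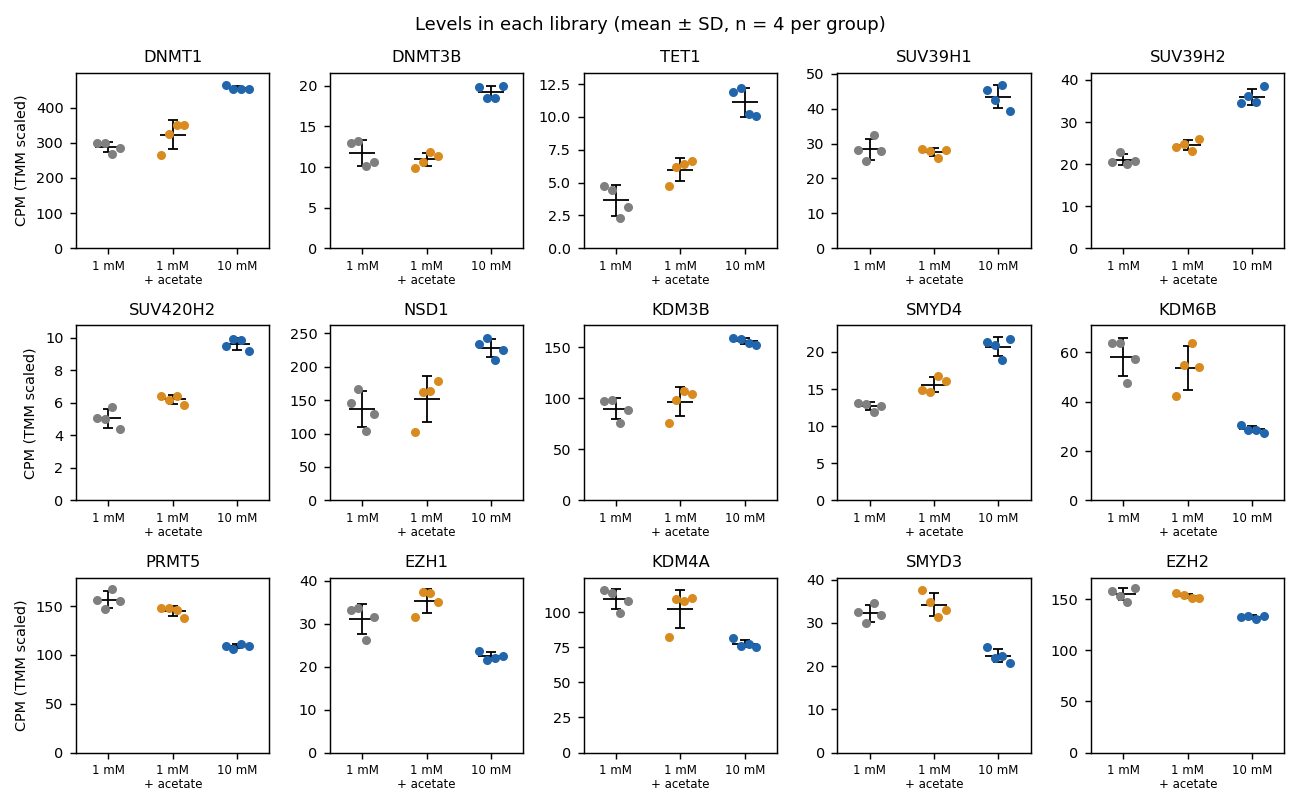
CPM of 15 enzymes in each of the 12 libraries, as points, with the mean and SD of the 4 libraries per group as lines; each panel has its own axis from 0. In the first 9 panels the 10 mM libraries lie above both low-glucose groups, and in KDM6B, PRMT5, EZH1, KDM4A, SMYD3 and EZH2 they lie below them.

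The methyltransferases of lysine 9 on histone H3, the mark of silent heterochromatin, divided by family. SUV39H1 and SUV39H2, which lay down the trimethyl mark of pericentric heterochromatin, and the dimethylating pair EHMT1 and EHMT2 were higher at 10 mM, while SETDB1 and SETDB2 were lower. SUV39H2 read 20.5, 22.9, 20.005 and 20.7 CPM at 1 mM glucose, 23.9, 24.8, 23.1 and 25.9 with acetate and 34.5, 36.3, 34.9 and 38.7 at 10 mM. The 3 groups were ordered without overlap, and the log2 fold change between the glucose levels was 0.78 ± 0.06 (edgeR adjusted p = 4.82e-08). SUV39H1 read 28.3, 25.1, 32.4 and 27.9 CPM at 1 mM glucose, 28.5, 27.9, 25.8 and 28.1 with acetate and 45.3, 42.5, 46.7 and 39.4 at 10 mM. It rose by 0.61 ± 0.08 (edgeR adjusted p = 5.94e-06), with the low-glucose groups mixed together and the 10 mM group above both. EHMT2, also known as G9a, read 71.6, 63.9, 72.5 and 67.8 CPM at 1 mM glucose, 75.4, 78.2, 76.96 and 79.9 with acetate and 103, 99.2, 105 and 93.4 at 10 mM. Its log2 fold change was 0.54 ± 0.06 (edgeR adjusted p = 6.57e-07), and that of its partner EHMT1 was 0.31 ± 0.08 (edgeR adjusted p = 0.00366). SETDB1, which silences retroelements together with TRIM28, read 65.7, 67.2, 58.9 and 63.5 CPM at 1 mM glucose, 62.7, 69.2, 70.3 and 69.1 with acetate and 53.6, 54.2, 52.1 and 50.4 at 10 mM. It fell by 0.28 on the log2 scale (SE 0.06, edgeR adjusted p = 0.000489), and no 10 mM library reached the low-glucose range. SETDB2 read 21.99, 22.4, 21.4 and 20.9 CPM at 1 mM glucose, 19.5, 20.8, 20.5 and 20.7 with acetate and 17.3, 15.5, 15.8 and 16.6 at 10 mM, a log2 difference of -0.41 ± 0.06 (edgeR adjusted p = 1.33e-05). The ratio of SUV39H1 to SETDB1 per kilobase was 0.693 at 1 mM (0.577 to 0.851), 0.63 with acetate and 1.28 at 10 mM (1.21 to 1.39), so the more abundant of these mRNAs was SETDB1 at low glucose and SUV39H1 at 10 mM. For SUV39H2 against SETDB2 it ranged from 4.64 to 5.09, from 5.61 to 6.24 and from 9.92 to 11.6, and the 4 libraries of each group did not overlap those of another. The size of this ratio rests on the 1233 bases of the marked SUV39H2 transcript. A transcript of 3087 bases with the same total count would lower it in every group. The SUV39H2 promoter window, chr10:14878616-14878915 (plus strand) in GRCh38.p14, is shown for the enzyme with the smallest adjusted p of the family, and its capitals mark TTTGAA, the cell-cycle homology region (CHR) element.

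SUV39H2: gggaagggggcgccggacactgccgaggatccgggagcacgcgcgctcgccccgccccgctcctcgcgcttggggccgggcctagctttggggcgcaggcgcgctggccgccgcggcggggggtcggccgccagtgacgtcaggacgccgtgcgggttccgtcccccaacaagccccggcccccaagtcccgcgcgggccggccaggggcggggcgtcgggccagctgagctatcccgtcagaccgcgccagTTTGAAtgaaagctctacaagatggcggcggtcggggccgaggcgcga

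The TTTGAA begins at position 2, just inside the transcript.

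The core of Polycomb repressive complex 2, which methylates lysine 27 of histone H3, split as well. EZH2, its main catalytic subunit in dividing cells, read 158, 153, 147 and 161 CPM at 1 mM glucose, 156, 154, 151 and 152 with acetate and 132, 134, 130.5 and 134 at 10 mM. All 4 libraries at 10 mM lay below the other 8, by -0.23 ± 0.04 against 1 mM on the log2 scale (edgeR adjusted p = 0.000413). With plain library totals as the scale it kept its direction at -0.08 and missed the threshold (adjusted p = 0.113, with a range of 5.43e-08 to 0.113 over the alternatives). EZH1, the other catalytic subunit, read 33.1, 33.5, 26.1 and 31.7 CPM at 1 mM glucose, 31.5, 37.4, 37.1 and 35.05 with acetate and 23.7, 21.5, 22.02 and 22.6 at 10 mM, a log2 difference of -0.47 ± 0.08 (edgeR adjusted p = 0.000127). EED, which binds the methyl mark and stimulates the enzyme, moved the other way: it read 11.8, 13.5, 13.3 and 13.7 CPM at 1 mM glucose, 14.97, 14.99, 13.9 and 14.9 with acetate and 16.8, 18.8, 18.4 and 18.7 at 10 mM, a rise of 0.48 ± 0.07 (edgeR adjusted p = 1.33e-05). SUZ12, the scaffold of the complex, read 126, 146, 105 and 131 CPM at 1 mM glucose, 123, 119, 122 and 134 with acetate and 116, 122, 119 and 119 at 10 mM. Its groups overlapped and its log2 fold change of -0.09 ± 0.08 was not called (edgeR adjusted p = 0.322); without replicate 3 at 1 mM it was -0.17 with an adjusted p of 0.0169. Against EZH2 per kilobase, EED stood at 0.1 at 1 mM (0.0889 to 0.107) and 0.163 at 10 mM (0.151 to 0.168), and EZH1 stood at 0.114 and 0.0966. EZH2 went against the mitosis and replication markers of these cells, and its promoter window, chr7:148884242-148884541 (minus strand) in GRCh38.p14, is printed for comparison with DNMT1. The capitals mark 1 E2F site, TTTGGCGC, and 4 CCAAT boxes, of which 3 are read on the opposite strand as attgg.

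EZH2: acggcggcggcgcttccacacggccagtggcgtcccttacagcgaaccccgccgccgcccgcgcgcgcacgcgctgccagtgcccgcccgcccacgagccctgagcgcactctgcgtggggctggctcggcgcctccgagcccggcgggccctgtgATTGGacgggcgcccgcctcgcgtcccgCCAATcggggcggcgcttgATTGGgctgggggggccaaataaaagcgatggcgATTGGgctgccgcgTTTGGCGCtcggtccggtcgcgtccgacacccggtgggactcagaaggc

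The E2F site begins at position 1 and the CCAAT boxes at -94, -66, -47 and -13. EZH2 and EZH1, both lower at 10 mM, and DNMT1, higher, all held one of the E2F sites searched. The part of these letters in the levels of these genes was not tested.

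Among the other 18 lysine methyltransferases 8 were higher, 6 lower and 4 not called, beside 33.7% of all genes higher and 33.8% lower. The enzymes of lysine 20 on histone H4 did not move together. SUV420H2, which trimethylates this residue, read 5.05, 5.01, 5.77 and 4.36 CPM at 1 mM glucose, 6.39, 6.14, 6.44 and 5.86 with acetate and 9.52, 9.91, 9.88 and 9.17 at 10 mM. The groups rose in order without overlap and the log2 fold change between glucose levels was 0.93 ± 0.08 (edgeR adjusted p = 1.73e-07). SUV420H1, the paralogue that mainly dimethylates, fell by 0.40 (SE 0.06, edgeR adjusted p = 3.57e-05), and SETD8, which adds the first methyl group, by 0.30 (SE 0.07, edgeR adjusted p = 0.00151). SETD8 missed the threshold with library totals, at -0.16 (adjusted p = 0.0606). The difference of SUV420H1 was that of its marked transcript, from 68.6 to 52.1 CPM. Its other transcript, with nearly as many reads, averaged 61.8 and 57.95 CPM, a log2 difference of -0.09 ± 0.08 that was not called (edgeR adjusted p = 0.291). Within a library, SUV420H2 stood at 0.0857 of SUV420H1 per kilobase at 1 mM (0.0707 to 0.108), 0.115 with acetate (0.112 to 0.117) and 0.214 at 10 mM (0.196 to 0.231), with no overlap between groups. This ratio rests on the marked SUV420H1 transcript. The SUV420H2 window, listed by RefSeq as KMT5C, is at chr19:55339626-55339925 (plus strand) in GRCh38.p14, and is shown as the promoter of the highest riser of the lysine methyltransferases averaging at least 1 CPM. The capitals mark CCAAT boxes at positions -117 and -64.

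SUV420H2: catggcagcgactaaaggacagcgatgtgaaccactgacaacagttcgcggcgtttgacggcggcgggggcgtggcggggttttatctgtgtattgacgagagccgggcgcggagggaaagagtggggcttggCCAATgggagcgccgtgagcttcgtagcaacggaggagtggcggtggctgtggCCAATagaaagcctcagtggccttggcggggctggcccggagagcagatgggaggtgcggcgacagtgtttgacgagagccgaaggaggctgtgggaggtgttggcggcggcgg

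No E2F or CHR letters were in this window.

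SETD2 and DOT1L, which mark transcribed gene bodies, and NSD1 were called higher at 10 mM. Outside the rule, the NSD1 relative WHSC1 was also called higher (0.43 ± 0.09, edgeR adjusted p = 0.00102). WHSC1L1, another relative, was not called (-0.03 ± 0.14, edgeR adjusted p = 0.855). NSD1, which dimethylates lysine 36 of histone H3, read 146, 167, 103 and 129.8 CPM at 1 mM glucose, 102, 163, 164 and 179 with acetate and 234, 242, 210.0 and 225 at 10 mM. The 10 mM libraries were above all others, and the log2 fold change was 0.74 ± 0.16 (edgeR adjusted p = 0.000706). It is the longest member transcript, at 12892 bases, and without both libraries that stood apart its log2 fold change was 0.63 with an adjusted p of 3.38e-08. SETD2, which trimethylates the same residue, read 103, 111, 69.5 and 90.5 CPM at 1 mM glucose, 74.6, 111, 116 and 119 with acetate and 120.4, 124, 117 and 122 at 10 mM. The 10 mM group lay just above the 1 mM group and overlapped the acetate group. Its log2 fold change of 0.37 ± 0.14 (edgeR adjusted p = 0.0336) lost its call when replicate 3 (adjusted p = 0.086) or 4 (0.075) at 1 mM or any replicate at 10 mM (0.0507 to 0.0664) was left out, and was 0.25 with an adjusted p of 0.000474 without both libraries that stood apart. DOT1L, the methyltransferase of lysine 79 on histone H3, read 59.3, 53.3, 43.3 and 50.6 CPM at 1 mM glucose, 41.98, 52.996, 60.1 and 58.5 with acetate and 68.1, 69.9, 67.1 and 67.4 at 10 mM. It rose by 0.40 ± 0.10 (edgeR adjusted p = 0.00357) without overlap. SETD1A and SETD1B, catalytic subunits of complexes that methylate lysine 4 of histone H3 at promoters, were called higher at 0.30 ± 0.08 and 0.33 ± 0.10. With the trend over length and GC removed, both lost their calls, at 0.08 (adjusted p = 0.169) and 0.09 (adjusted p = 0.174).

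The remaining SET-domain members included enzymes whose known targets are not histones. SETD3, which methylates a histidine of actin, read 64.5, 62.99, 62.1 and 65.8 CPM at 1 mM glucose, 66.6, 67.95, 63.5 and 67.9 with acetate and 48.3, 45.4, 47.9 and 51.5 at 10 mM, a log2 difference of -0.40 ± 0.05 (edgeR adjusted p = 6.23e-06). SETD4 read 27.2, 25.4, 26.05 and 24.4 CPM at 1 mM glucose, 27.9, 25.9, 25.1 and 23.8 with acetate and 21.2, 17.8, 18.1 and 19.4 at 10 mM, with a log2 difference of -0.43 ± 0.07 (edgeR adjusted p = 7.20e-05). In both genes the low-glucose groups overlapped and the 10 mM group was below them. SETD6, which methylates the NF-kappaB subunit RELA, fell by 0.25 (SE 0.06, edgeR adjusted p = 0.000979) and missed the threshold with library totals, at -0.11 (adjusted p = 0.102). SETD5 at -0.10 ± 0.10 and SETD7 at -0.12 ± 0.12 were not called. Those 2 were called lower without replicate 3 at 1 mM, at -0.20 and -0.23, each with an adjusted p of 0.0473. SMYD3, a methyltransferase of the cytoplasm and nucleus that acts on the kinase MAP3K2, read 32.6, 29.9, 34.7 and 31.8 CPM at 1 mM glucose, 37.7, 34.8, 31.4 and 32.9 with acetate and 24.3, 21.9, 22.4 and 20.7 at 10 mM. It fell by 0.53 (SE 0.07, edgeR adjusted p = 1.29e-05) with no overlap. SMYD4 read 13.2, 13.02, 11.97 and 12.8 CPM at 1 mM glucose, 14.9, 14.5, 16.8 and 16.1 with acetate and 21.4, 20.9, 18.96 and 21.7 at 10 mM, stepping up from group to group without overlap, and its log2 fold change was 0.70 ± 0.07 (edgeR adjusted p = 3.47e-07). SMYD1, a muscle enzyme, had the highest log2 fold change of all members at 1.72 ± 0.40 (edgeR adjusted p = 0.00147), but on 2 to 8 reads a library at 1 mM and 13 to 21 at 10 mM. SMYD2, which methylates p53, and SMYD5 were not called, at 0.14 ± 0.06 and 0.04 ± 0.05; SMYD2 was called higher in 8 of the 24 alternatives, such as 0.18 with an adjusted p of 0.00963 without replicate 3 at 1 mM.

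The summed mean level of the arginine methyltransferases went from 508 CPM at 1 mM to 492 CPM with acetate and 416 CPM at 10 mM. Of 7 tested members 4 were lower and 2 higher between 10 mM and 1 mM, where 33.8% of all genes were lower and 33.7% higher. PRMT5, the main enzyme of symmetric dimethylation, read 156, 147, 167 and 155 CPM at 1 mM glucose, 148, 148, 146 and 138 with acetate and 109, 106, 111 and 109.6 at 10 mM. The 10 mM libraries sat together well under the rest, and the log2 fold change was -0.52 ± 0.05 (edgeR adjusted p = 3.53e-07). PRMT1, the main enzyme of asymmetric dimethylation, read 154, 137, 184 and 158 CPM at 1 mM glucose, 179.8, 150.4, 152 and 140.5 with acetate and 116, 109, 123 and 112 at 10 mM. It fell by 0.46 (SE 0.09, edgeR adjusted p = 0.000312) without overlap, and it was the most abundant member per kilobase at 1 mM, at 119 CPM per kb, and the second at 10 mM, at 86.6, behind DNMT1 at 87.6. PRMT3, which methylates a ribosomal protein of the small subunit, read 51.3, 55.8, 48.5 and 53.7 CPM at 1 mM glucose, 49.5, 50.7, 47.3 and 50.4 with acetate and 36.5, 39.3, 36.2 and 39.7 at 10 mM, a log2 difference of -0.46 ± 0.06 (edgeR adjusted p = 4.78e-06). PRMT10 was called lower at -0.16 ± 0.06 (edgeR adjusted p = 0.0385), a call lost in 9 of the 24 alternatives, with adjusted p from 0.0165 to 0.8. These included leaving out replicate 1 (0.0786) or 3 (0.071) at 1 mM, or replicate 2, 3 or 4 at 10 mM (0.0665 to 0.119). PRMT6, which methylates arginine 2 of histone H3, and PRMT7, which adds a single methyl group, went the other way at 0.39 ± 0.05 and 0.41 ± 0.07, and PRMT2 at -0.07 ± 0.07 was not called. PRMT6 stood at 0.215 of PRMT5 per kilobase at 1 mM (0.207 to 0.223), 0.253 with acetate (0.234 to 0.266) and 0.404 at 10 mM (0.387 to 0.419). The PRMT5 window, chr14:22929327-22929626 (minus strand) in GRCh38.p14, is shown for the member with the smallest adjusted p among those that fell, with CCAAT boxes on the opposite strand, attgg, in capitals.

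PRMT5: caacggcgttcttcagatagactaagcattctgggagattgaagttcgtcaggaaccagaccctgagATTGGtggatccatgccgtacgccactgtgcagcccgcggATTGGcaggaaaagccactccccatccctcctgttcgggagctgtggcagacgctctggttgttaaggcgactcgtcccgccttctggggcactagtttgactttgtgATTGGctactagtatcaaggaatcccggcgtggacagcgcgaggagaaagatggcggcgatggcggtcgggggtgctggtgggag

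These begin at positions -183, -143 and -35.

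The LSD-type demethylases of lysine 4 on histone H3 divided. KDM1A, the LSD1 subunit of the CoREST complex, read 117, 116, 116 and 121 CPM at 1 mM glucose, 122, 129, 132 and 133 with acetate and 154, 148, 151 and 158 at 10 mM. Each group was tight, the 3 did not overlap, and the log2 fold change was 0.38 ± 0.05 (edgeR adjusted p = 3.91e-06). KDM1B was called lower at -0.18 ± 0.06 (edgeR adjusted p = 0.0245) with overlapping groups, and lost the call in 6 of the 24 alternatives, with an adjusted p of 0.653 under library totals. Leaving out replicate 1, 2 or 4 at 1 mM, or replicate 3 or 4 at 10 mM, was enough to lose it, with adjusted p of 0.0526 to 0.0854.

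Of the 13 JmjC demethylases tested, 5 were higher, 3 lower and 5 not called, beside 33.7% of all genes higher and 33.8% lower. KDM6B, which removes methyl groups from lysine 27 of histone H3, read 63.8, 63.8, 47.8 and 57.2 CPM at 1 mM glucose, 42.3, 54.9, 64.01 and 53.9 with acetate and 30.4, 28.4, 28.7 and 27.5 at 10 mM. Its 10 mM libraries lay close together and below all others, a log2 difference of -1.02 ± 0.11 that is 2.02-fold lower (edgeR adjusted p = 1.69e-06). KDM6A, which removes the same mark, read 40.8, 43.2, 31.2 and 38.5 CPM at 1 mM glucose, 29.5, 37.5, 38.01 and 36.03 with acetate and 30.5, 31.5, 28.2 and 30.6 at 10 mM. Its 1 mM and 10 mM libraries overlapped through replicate 3 at 1 mM, and it was called lower at -0.35 ± 0.10 (edgeR adjusted p = 0.00581; 0.0699 under library totals). KDM6B stood at 1.23 of KDM6A per kilobase at 1 mM (1.2 to 1.26), 1.23 with acetate (1.16 to 1.36) and 0.772 at 10 mM (0.728 to 0.823), so KDM6A was the more abundant of the pair at 10 mM and in no library at low glucose. The KDM6B window, chr17:7833967-7834266 (plus strand) in GRCh38.p14, belongs to the only member at least 1.5-fold lower, and none of the motifs searched was in it.

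KDM6B: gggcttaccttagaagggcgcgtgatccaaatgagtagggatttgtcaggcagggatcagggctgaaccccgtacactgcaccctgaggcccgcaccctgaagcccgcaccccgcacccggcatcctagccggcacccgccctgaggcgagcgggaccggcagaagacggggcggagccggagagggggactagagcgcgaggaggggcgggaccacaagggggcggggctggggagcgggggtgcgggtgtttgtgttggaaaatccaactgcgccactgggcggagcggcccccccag

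KDM3A and KDM3B, which act on mono- and dimethylated lysine 9 of histone H3, were both higher at 10 mM. Their relative JMJD1C, outside the rule, was lower (-1.07 ± 0.18, edgeR adjusted p = 8.74e-05). KDM3B read 97.03, 98.5, 76.4 and 88.5 CPM at 1 mM glucose, 75.98, 98.9, 108 and 105 with acetate and 159, 159, 154 and 153 at 10 mM, a log2 difference of 0.79 ± 0.10 (edgeR adjusted p = 5.56e-06). KDM3A, whose gene is a known target of hypoxia-inducible factor, read 105, 108, 82.4 and 98.3 CPM at 1 mM glucose, 78.7, 94.3, 94.3 and 87.2 with acetate and 136, 134, 128 and 139 at 10 mM, a log2 difference of 0.44 ± 0.08 (edgeR adjusted p = 0.000213). In both, all 10 mM libraries were above all others, and KDM3B was the higher riser.

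The KDM4 enzymes, which act on trimethylated lysine 9 of histone H3, differed among themselves. KDM4A read 116, 114, 99.8 and 108 CPM at 1 mM glucose, 82.3, 109, 108 and 110.0 with acetate and 81.5, 76.3, 77.1 and 75.6 at 10 mM. It fell by 0.50 (SE 0.08, edgeR adjusted p = 0.000106) without overlap, and of the low-glucose libraries replicate 1 with acetate, at 82.3 CPM, came closest to the 10 mM group. KDM4B read 30.2, 24.9, 23.3 and 25.2 CPM at 1 mM glucose, 20.4, 23.7, 26.5 and 26.2 with acetate and 35.2, 34.3, 32.2 and 32.8 at 10 mM, a log2 difference of 0.38 ± 0.09 (edgeR adjusted p = 0.00190). KDM4D, a low-level member, read 1.099, 1.23, 0.858 and 1.02 CPM at 1 mM glucose, 1.07, 0.954, 1.36 and 1.17 with acetate and 1.63, 1.45, 1.57 and 1.67 at 10 mM, a log2 difference of 0.59 ± 0.15 (edgeR adjusted p = 0.00344). Both were above the other groups at 10 mM in every library, opposite to KDM4A. KDM4C was not called at -0.17 ± 0.08, though it was called lower without replicate 3 at 1 mM, at -0.26 with an adjusted p of 0.00153. Within a library the ratio of KDM4B to KDM4A per kilobase was 0.189 at 1 mM (0.175 to 0.208), 0.189 with acetate (0.173 to 0.198) and 0.347 at 10 mM (0.334 to 0.36). The ratio of KDM3B to KDM4A went from 0.539 (0.502 to 0.568) and 0.62 (0.595 to 0.653) to 1.32 (1.28 to 1.37).

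KDM2B, a lysine 36 demethylase that also recruits a Polycomb complex to CpG islands, was higher at 0.44 ± 0.06 (edgeR adjusted p = 1.08e-05). KDM2A, its paralogue, read 172, 166, 133 and 156 CPM at 1 mM glucose, 107, 140.0, 147 and 141 with acetate and 171, 168, 165 and 162 at 10 mM. Its 10 mM and 1 mM libraries overlapped, and the log2 fold change of 0.09 ± 0.09 was not called (edgeR adjusted p = 0.428); it turned to -0.10 with an adjusted p of 0.0247 once the trend over length and GC was removed, so no direction is given. The KDM5 demethylases of trimethylated lysine 4 on histone H3 did not pass the test. KDM5A read 108, 115, 73.97 and 93.6 CPM at 1 mM glucose, 75.7, 109, 114 and 112 with acetate and 115, 116, 102 and 111 at 10 mM, with a 95% interval of the log2 fold change from -0.08 to 0.44. KDM5B read 76.7, 75.6, 55.7 and 70.6 CPM at 1 mM glucose, 60.2, 74.5, 75.5 and 73.8 with acetate and 78.1, 75.7, 71.3 and 76.7 at 10 mM, with an interval of -0.07 to 0.30. KDM5C read 247, 243, 195 and 229.9 CPM at 1 mM glucose, 168, 220.2, 238 and 233 with acetate and 256, 255, 254 and 239.5 at 10 mM, with an interval of -0.06 to 0.33. In each of them the 10 mM range overlapped the 1 mM range, and the lowest libraries were replicate 3 at 1 mM and replicate 1 with acetate. All 3 were called higher with library totals, at 0.32 (adjusted p = 0.0426), 0.26 (adjusted p = 0.0228) and 0.28 (adjusted p = 0.0188).

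**Figure D3:**
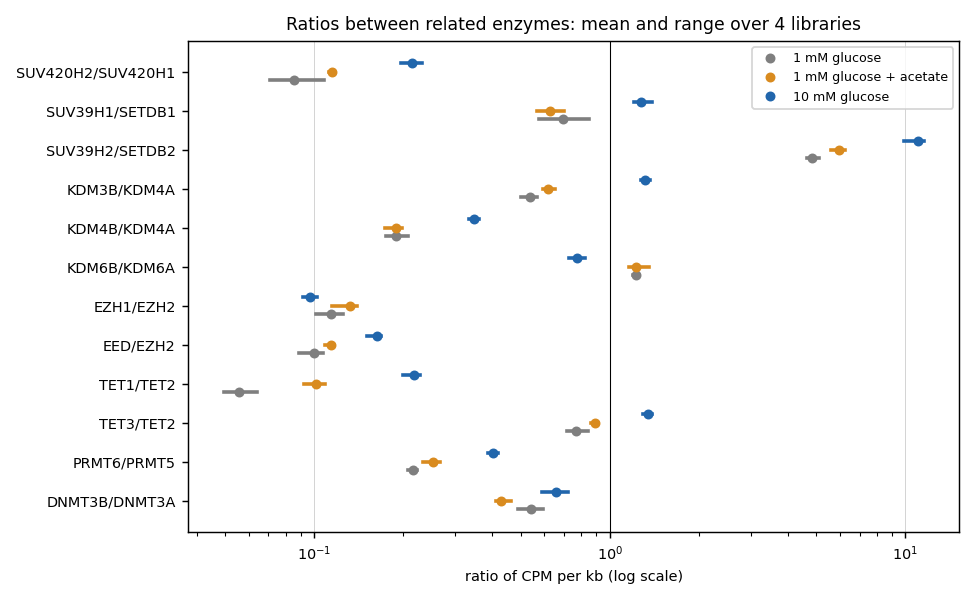
Ratio of the CPM per kilobase of 2 related enzymes, computed within each library; the point is the mean and the bar the range over the 4 libraries of a group, on a log axis. The ratio of SUV39H1 to SETDB1, KDM3B to KDM4A and TET3 to TET2 lies under 1 in both low-glucose groups and above 1 at 10 mM, and that of KDM6B to KDM6A does the reverse.

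Ratios taken within a library varied less between libraries than the single levels did in several pairs. KDM6B alone had an SD of 7.55 CPM on a mean of 58.1 CPM at 1 mM, while its ratio to KDM6A had an SD of 0.0321 on a mean of 1.23. In other pairs the ratio varied more. SUV39H1 alone had an SD of 3.03 CPM on a mean of 28.4 CPM at 1 mM, and its ratio to SETDB1 an SD of 0.115 on a mean of 0.693. Levels per kilobase rest on GENCODE v29 transcript lengths, matched by accession for 56 members and by symbol for 3. The length is that of the marked transcript. SUV39H2, taken at 1233 bases, and DNMT3A, taken at 4279, each have another transcript with the same total count, of 3087 and 9501 bases. Their levels, ranks and ratios per kilobase depend on this choice.

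With all 12 libraries, few of these enzymes were called for acetate, and more were called without the libraries that stood apart. Between 1 mM glucose with acetate and 1 mM glucose alone, 4 of 56 members were higher (7.14%, against 6.65% of all genes) and 0 were lower (against 7.09%) by the edgeR test; 15 had an unadjusted p under 0.05. DESeq2 called 5 higher and 0 lower, where it called 16.6% of all genes, and limma-voom 4 and 0, where it called 13.5%. The median log2 fold change of the members was 0.05 and that of all genes 0.00. In 10 members (17.9%) the groups did not overlap, near the 15.6% of all genes. The comparison shares its 1 mM libraries with the glucose comparison, so the 2 are given side by side and not as independent evidence.

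The 4 called members were TET1, SMYD4, SUV420H2 and SUV39H2, each with the library values given above. TET1 averaged 3.63 ± 1.16 CPM (SD, n = 4) at 1 mM and 5.98 ± 0.853 CPM with acetate, a log2 difference of 0.72 ± 0.18 (edgeR adjusted p = 0.0181), the only call of at least 1.5-fold (1.79%, against 1.25% of all genes higher by as much and 2.64% in either direction). Its groups overlapped in 1 place, where replicate 1 with acetate at 4.73 CPM lay under replicate 1 at 1 mM at 4.76 CPM. SMYD4 averaged 12.7 ± 0.528 and 15.6 ± 1.05 CPM, a log2 difference of 0.29 ± 0.07 (edgeR adjusted p = 0.0119). SUV420H2 averaged 5.05 ± 0.575 and 6.21 ± 0.266 CPM, a log2 difference of 0.30 ± 0.09 (edgeR adjusted p = 0.0369), and SUV39H2 21.03 ± 1.29 and 24.4 ± 1.203 CPM, 0.22 ± 0.06 (edgeR adjusted p = 0.0354). The last 3 did not overlap between groups. SMYD4 alone was called in all 24 alternatives, with adjusted p of 0.00134 to 0.0434. TET1 lost its call in 4 of them, with adjusted p of 0.00112 to 0.0622, SUV39H2 in 8, with 0.0149 to 0.109, and SUV420H2 in 13, with 0.00599 to 0.114. Those lost calls included single libraries: TET1 without replicate 4 at 1 mM (0.0622) or replicate 3 (0.0515) or 4 (0.0558) with acetate. SUV39H2 lost it without replicate 1, 3 or 4 at 1 mM (0.061 to 0.0907), replicate 2 or 4 with acetate (0.0869 and 0.109) or replicate 2 at 10 mM (0.0519). SUV420H2 lost it without replicate 1, 2 or 4 at 1 mM (0.0559 to 0.114), any replicate with acetate (0.0523 to 0.0903) or replicate 1, 2 or 3 at 10 mM (0.0511 to 0.0527). In the glucose comparison the same genes stood at 1.61, 0.70, 0.93 and 0.78.

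The count of acetate calls depended on the libraries that stood apart. Without replicate 1 with acetate 10 members were higher and 0 lower, where 20.4% of all genes were called. Without replicate 3 at 1 mM 4 were higher and 4 lower, where 15.9% were called. Without both, 12 were higher and 4 lower, where 25.8% of all genes were called, and with the trend over length and GC removed 15 and 5, where 27.2% were called. Leaving out both libraries, DNMT1 stood at 0.22 (adjusted p = 0.00158), EHMT2 at 0.21 (adjusted p = 0.00757) and KDM1A at 0.15 (adjusted p = 0.0162), and KDM2A at -0.20 (adjusted p = 0.00343) and KDM3A at -0.18 (adjusted p = 0.0163). With all 12 libraries these were 0.17, 0.17, 0.14, -0.23 and -0.15, none of them called, with edgeR adjusted p of 0.172, 0.0545, 0.0667, 0.128 and 0.238. EHMT2 and KDM1A did not overlap between the groups with all libraries in. The other members that gained a call without both libraries were DNMT3A at 0.23 (adjusted p = 0.0341), EHMT1 at 0.20 (adjusted p = 0.0208), EZH1 at 0.16 (adjusted p = 0.048), SETD2 at 0.18 (adjusted p = 0.0335) and SETD5 at 0.18 (adjusted p = 0.0102) on the higher side. KDM4C at -0.16 (adjusted p = 0.0411) and SUV420H1 at -0.19 (adjusted p = 0.0153) were on the lower side. Leaving out other single libraries lowered the number called higher to as few as 1, as without replicate 4 in either group, or 2, as without replicate 1 at 1 mM, replicate 2 or 3 with acetate, or replicate 2 at 10 mM. In these settings 8.24% to 11.6% of all genes were called.

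**Figure D4:**
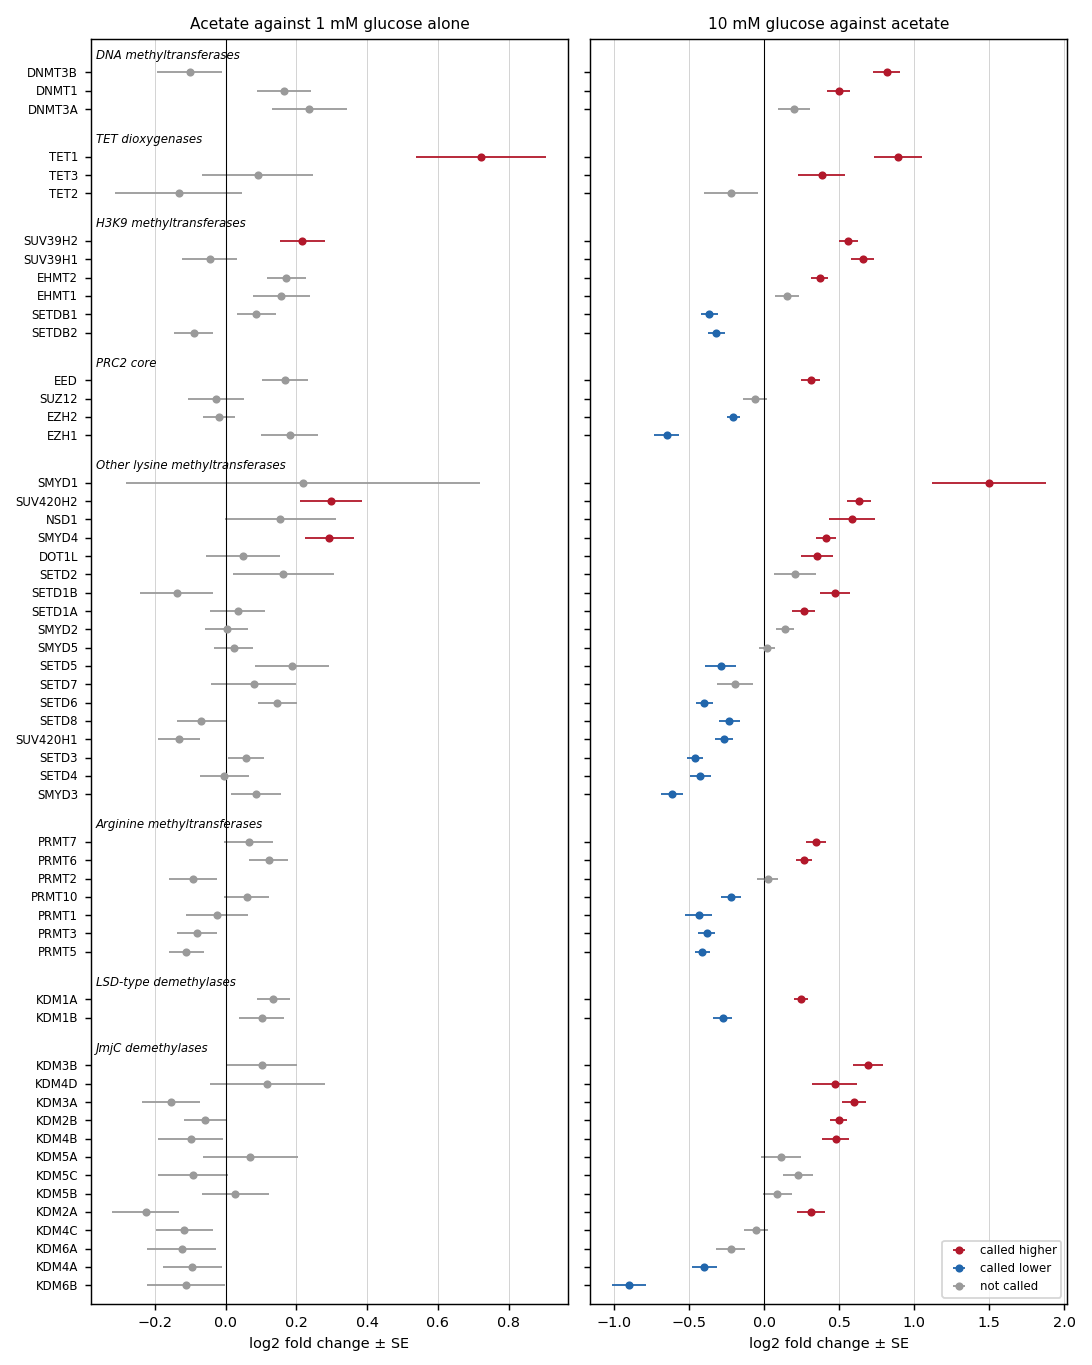
Log2 fold change of the 56 tested enzymes for acetate against 1 mM glucose alone (left) and for 10 mM glucose against acetate (right), with bars of 1 SE and different horizontal scales. On the left only TET1, SUV39H2, SUV420H2 and SMYD4 are called, and no member lies below -0.23; on the right 24 are called higher and 18 lower.

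High glucose and acetate left the enzymes at different levels. Between 10 mM glucose and acetate 24 of 56 members were higher (42.9%, against 31% of all genes) and 18 lower (32.1%, against 31.8%), in all 75% against 62.8% by the edgeR test. The groups did not overlap in 43 members (76.8%, against 61%). By at least 1.5-fold 8 were higher (14.3%, against 12.6%) and 3 lower (5.36%, against 12.8%). Since the acetate and high-glucose cells were both compared with 1 mM glucose, this contrast is the direct test of whether the additions differed. DNMT3B stood at 0.82 ± 0.09 (edgeR adjusted p = 1.58e-06), SUV39H1 at 0.66 ± 0.08 (edgeR adjusted p = 3.60e-06) and KDM3B at 0.69 ± 0.10 (edgeR adjusted p = 2.70e-05), above acetate in every library. KDM6B stood at -0.90 ± 0.11 (edgeR adjusted p = 7.04e-06), EZH1 at -0.65 ± 0.08 (edgeR adjusted p = 6.40e-06) and SMYD3 at -0.61 ± 0.07 (edgeR adjusted p = 3.41e-06), below it in every library. PRMT5 at -0.41 ± 0.05 and EZH2 at -0.21 ± 0.04 were also lower; EZH2 missed the threshold with library totals, at -0.10 (adjusted p = 0.0591). The members called for acetate were higher still at 10 mM, TET1 by 0.89 ± 0.16, SUV420H2 by 0.63 ± 0.08, SUV39H2 by 0.56 ± 0.06 and SMYD4 by 0.41 ± 0.07. DNMT3A at 0.20 ± 0.10 (edgeR adjusted p = 0.112), EHMT1 at 0.15 ± 0.08 and SETD2 at 0.20 ± 0.14 were not called, and their 10 mM libraries overlapped those with acetate. KDM2A was called here, at 0.31 ± 0.09 (edgeR adjusted p = 0.00935), with every 10 mM library above every acetate library. TET3, at 0.38 ± 0.16, was called at an edgeR adjusted p of 0.0453 and lost the call in 9 of the 24 alternatives, at up to 0.122 without replicate 1 with acetate, and at 0.0729 with the replicate number as a block. Without both libraries that stood apart, 26 members were higher and 21 lower, where 68.7% of all genes were called, and the members' median log2 fold change went from 0.14 to 0.07. KDM6A at -0.30 (adjusted p = 6.31e-05), SETD7 at -0.29 (adjusted p = 0.000101) and TET2 at -0.35 (adjusted p = 0.000333) were then called lower, and SMYD2 at 0.16 (adjusted p = 0.00594) and KDM5C at 0.12 (adjusted p = 0.0189) higher. With all 12 libraries none of these 5 was called, with edgeR adjusted p of 0.0598, 0.165, 0.306, 0.0637 and 0.0579.

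The levels of the family spanned a wide range. Per kilobase of transcript the 56 tested members ran from 0.0452 CPM per kb for SMYD1 to 119 CPM per kb for PRMT1 at 1 mM, with a median of 10.3; 17 were over 20 and 10 under 5. PRMT1, PRMT5, SMYD2, EZH2 and DNMT1 were the 5 most abundant at 1 mM, at 119, 64.7, 62.2, 58.8 and 55.4 CPM per kb. At 10 mM DNMT1 came first at 87.6 and PRMT5 sixth at 45.0, while SMYD2 stood at 68.4 and EZH2 at 50.3. TET1, at 0.391 and 1.195 CPM per kb, and SUV420H2, at 2.19 and 4.17, were among the 4 lowest tested members at 1 mM although they had some of the highest fold changes.

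Long enzymes were the ones affected in the libraries that stood apart. Among the 56 tested members, transcript lengths ran from 1233 bases (SUV39H2) to 12892 bases (NSD1), with a median of 4435. The 17 members of at least 6000 bases had a median level of 0.749 times the mean of the other 3 libraries in replicate 3 at 1 mM and 0.734 times in replicate 1 with acetate. Over the members, the Spearman correlation between length and a library's deviation from its group was -0.807 and -0.863 in these libraries (n = 56 genes, which share the library and are not replicates). In the other 10 libraries it ran from -0.537 in replicate 3 at 10 mM to 0.812 in replicate 1 at 1 mM; each library was set against the other 3 of its group, which for 6 of them include one of the libraries that stood apart. Replicate 3 at 1 mM was the lowest of its group in 37 of 56 members and replicate 1 with acetate in 34. The members' summed level was 3527 and 3539 CPM in them, against 3892 to 4111 and 4052 to 4182 CPM in the rest of their groups and 4176 to 4338 CPM at 10 mM. With both left out, 27 members were higher and 22 lower between 10 mM and 1 mM, the members' median was 0.07, and 72.7% of all genes were called. With the trend over length and GC removed instead, the median was 0.01, 72.8% of all genes were called, and 42 of the 44 called members kept their calls. When library totals replaced TMM, the all-gene median moved by 0.14, the share of all calls that were higher from 49.9% to 63.3%, and the members called to 32 higher and 12 lower.

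**Figure D5:**
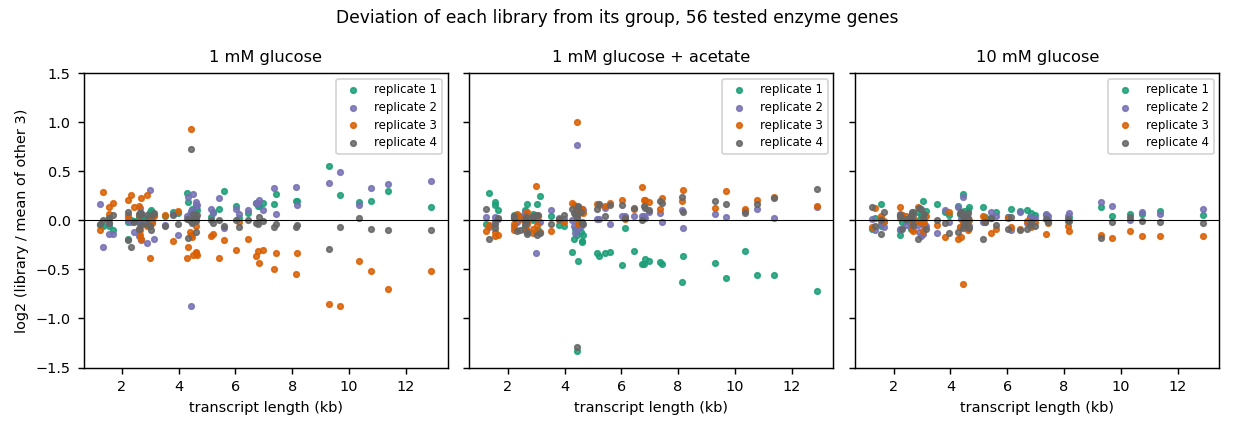
Log2 of each library's level over the mean of the other 3 of its group, against transcript length in kilobases, for the 56 tested members, with libraries coloured by replicate number. Replicate 3 at 1 mM glucose and replicate 1 with acetate fall below 0 as transcripts lengthen (Spearman -0.807 and -0.863), and the scattered points near 4.4 kb are SMYD1, with few reads. The SMYD1 point of replicate 1 at 1 mM glucose, at -1.56, lies beyond the axis and is not drawn.

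Several members have more than 1 deposited transcript, 100 for the 59 genes, and the transcript the authors had marked stands for each. For most genes the transcripts held nearly the same counts. The second TET2 transcript carried 34.8% ± 9.79 (SD, n = 4) of the counts of the main one at 1 mM, 39.9% ± 9.495 with acetate and 39.6% ± 3.08 at 10 mM, and its lowest and highest shares at 1 mM were 22.5% and 45.3%. For EHMT1 the short transcript carried 51.8% ± 6.196 at 1 mM and 56.9% ± 2.87 at 10 mM, and for SETD3 37.0% ± 1.68 and 40.0% ± 1.71. These shares overlapped between 1 mM and 10 mM. For SUV420H1 they did not: the other transcript, NM_017635, carried 89.9% of the counts of the marked one at 1 mM (82.8% to 95.2%), 93.1% with acetate (85.9% to 98.6%) and 111.4% at 10 mM (106.5% to 115.1%). With each member counted on its most abundant other transcript, where it has one, 26 members were higher and 17 lower, SUV420H1 being the one that lost its call; this setting was chosen after seeing the data. With the most abundant transcript of each gene in place of the marked one, 26 and 18 members were called for glucose. In GENCODE v29, 17 of the 59 members share exon bases with another gene, and 8 with a coding gene. The longest such overlap among named coding neighbours is 1086 bases between SETD6 and CNOT1, on opposite strands. Whether the counting used strand is not given in the sources used here, so the values of SETD6, DOT1L (with PLEKHJ1), SETDB1 (with CERS2), PRMT7 (with SMPD3), KDM2B (with RNF34), KDM5A (with CCDC77) and SUV39H2 (with DCLRE1C) may hold reads of their neighbours. KDM4A shares 205 bases with AL451062.3 on the same strand, where strand could not separate the reads.

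The promoter letters searched were found in windows of enzymes that rose and of enzymes that fell. RefSeq windows of 300 bases were matched for 54 of the 56 tested members, all but DOT1L and SETD1B, of which 24 were higher, 18 lower and 12 not called. The 4 E2F sites searched on both strands, TTTCCCGC, TTTGGCGC, TTTCGCGC and TTTGCCGC, were in 5 windows (9.26%, against 3.3% of 34796 windows): DNMT1, which was higher, EZH1, EZH2 and KDM1B, which were lower, and SUZ12. The CHR letters TTTGAA were in 5 (9.26%, against 15.2%), those of KDM2A, KDM4D, SUV39H2, SUZ12 and TET2. CCAAT was in 21 (38.9%, against 34.6%), 9 of them higher and 9 lower. The hypoxia response letters ACGTG were in 17 (31.5%, against 21.4%), 8 higher and 6 lower, with TET2, TET3, NSD1, KDM1A and EHMT2 among them. TGATGNAA, the letters bound by the stress factor ATF4, was in none of the 54, against 3.63% of all windows. The 34796 windows were not limited to genes tested here, while the 54 members were all tested, so these shares come from unlike sets. A match is a description of letters and not a site of binding, and the coordinates are those of GRCh38.p14 while the counts were made on hg19.

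The enzymes' partners outside the rule were read from lists of known genes. Over all genes tested, 33.7% were higher and 33.8% lower at 10 mM than at 1 mM glucose. With acetate against 1 mM glucose, 6.65% of all genes were higher and 7.09% lower. Of 27 tested genes of other methyltransferases and their subunits, 13 were higher and 5 lower at 10 mM, with a median log2 fold change of 0.15 beside 0.00 for all genes. PHF19, a Polycomb-like subunit that brings PRC2 to chromatin, rose from 119 to 220 CPM (0.89 ± 0.06, edgeR adjusted p = 1.30e-08), RBBP7, a histone-binding subunit of PRC2, rose by 0.53 ± 0.05, and RIOK1, a partner of PRMT5, fell by 0.48 (SE 0.06). With acetate PHF19 fell, by 0.29 (SE 0.06, edgeR adjusted p = 0.00835), one of 2 lower and 1 higher in this list. Of 17 JmjC and LSD-complex genes not covered by the rule 6 were higher and 7 lower, with a median of -0.10. Among the lower ones, JHDM1D fell from 71.7 to 31.3 CPM (-1.19 ± 0.14, edgeR adjusted p = 2.65e-06) and JMJD1C from 156 to 74.1 CPM. Both log2 fold changes were lower than that of KDM6B. HR, the hairless demethylase, rose from 35.9 to 118 CPM (1.71 ± 0.09, edgeR adjusted p = 3.45e-10), and RCOR2, a CoREST partner of KDM1A, from 0.684 to 2.02 CPM (1.55 ± 0.16). JMJD6, a JmjC hydroxylase, averaged 81.9 CPM at 1 mM, 58.7 with acetate and 56.7 at 10 mM, and was lower with acetate (-0.48 ± 0.06, edgeR adjusted p = 0.000150) as well as with glucose (-0.53 ± 0.06, edgeR adjusted p = 1.65e-06).

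All tested DNA methylation partners and readers were called at 10 mM, where 67.5% of all genes were called. Of 17 tested genes 11 were higher and 6 lower at 10 mM, with a median of 0.44. With acetate 2 were higher and 2 lower, where 13.7% of all genes were called. UHRF1, which brings DNMT1 to newly replicated DNA, averaged 30.0 CPM at 1 mM, 38.5 with acetate and 72.4 at 10 mM (1.27 ± 0.07, edgeR adjusted p = 6.00e-10), and it was also higher with acetate (0.36 ± 0.07, edgeR adjusted p = 0.00340). GADD45A and GADD45B, stress-induced genes linked to DNA demethylation, fell from 208 to 38.7 CPM and from 52.7 to 7.29 CPM. Their log2 fold changes, -2.42 ± 0.08 and -2.85 ± 0.10, were lower than that of any enzyme of the family, and both were also lower with acetate (-0.31 ± 0.07 and -0.94 ± 0.09).

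Of 20 genes that supply or clear the methyl donor and the cofactors, 6 were higher and 7 lower at 10 mM, with a median of 0.08. With acetate 2 were higher and 3 lower. Over all genes, 67.5% were called for glucose and 13.7% for acetate. IDH1, the cytosolic enzyme that makes 2-oxoglutarate, fell from 210 to 90.3 CPM (-1.22 ± 0.07, edgeR adjusted p = 1.57e-09). SMS, which makes spermine from decarboxylated S-adenosylmethionine, fell from 119 to 68.0 CPM (-0.81 ± 0.06), and MTAP, which recycles the by-product methylthioadenosine, rose from 86.4 to 139 CPM (0.68 ± 0.05). MTAP was also higher with acetate, at 113 CPM (0.39 ± 0.05, edgeR adjusted p = 0.000278). Members of this list thus lay on both sides, as did the enzymes.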

How the data were processed

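RNA from 12 LN229 libraries, 4 per group, was sequenced by standard Illumina protocols per the labels. The deposited values are the authors' whole-number counts per RefSeq transcript, 34917 in each library, with no normalization; the build was hg19 per the submitters' processing notes, no aligner, counting program or strand setting was named (not given in the sources used here). One transcript stood for each of 22257 genes, the one the authors marked or, in 1362 genes without a mark, the one with the highest total. Every column of sample values in the files was used (0 left out).

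Counts were filtered with filterByExpr (minimum count 10), scaled by TMM and tested in edgeR 4.0.16 (R 4.3.3) by the quasi-likelihood F test, with 12 libraries in 1 fit, 1 mean per group and Benjamini-Hochberg adjustment over 14416 genes at 0.05. The common biological coefficient of variation was 8.51%. SE come from the F statistic. No 2 replicates agreed within sampling noise: the chi-square per gene was at least 2.74. Replicate numbers did not pair the libraries: same-numbered pairs had correlations of -0.365 to 0.27 over genes, 3 of 12 over 0.1.

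The members, lists and tests were chosen with earlier results of these data known. Library values were given for the 10 highest and 10 lowest members called for glucose with at least 1 CPM and groups that did not overlap, 4 each way in the other comparisons, and 28 fixed members; of each list, the 3 called genes with the smallest p were named, and other genes named were chosen after their values were seen. Alternatives were DESeq2 1.42.0 (its size factors, its Wald test), limma-voom (limma 3.58.1), library totals, other low-count filters, a 1.5-fold minimum, only 8 libraries, a replicate block, each library left out, both libraries that stood apart left out, the most abundant transcript, a spline (5 degrees of freedom) over length and GC and, added after seeing the data, each member's other transcript. Promoters were taken from RefSeq (GRCh38.p14) and figures drawn with matplotlib 3.10.9. The sum of 1 marker list is not reported here.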

Additional observations from a re-analysis of the deposited data

Results flagged for a closer look

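The 38 members whose library values are given make 114 sets of 4 libraries, 1 for each member and group. In 6 of these sets, 1 library lay far from the other 3, by a gap larger than Dixon's 95% critical value for 4 samples; chance flags about 1 in 20 groups. All 6 were low. With acetate, replicate 1 stood apart in KDM4A at 82.27 CPM (the others 108.4 to 110 CPM), KDM5A at 75.72 CPM (108.9 to 113.9 CPM), KDM5B at 60.17 CPM (73.83 to 75.52 CPM) and SETDB1 at 62.72 CPM (69.07 to 70.26 CPM), and this library also had low counts on long transcripts in general; the part of this in these values was not tested. With acetate, EED was low in replicate 3, at 13.93 CPM against 14.9 to 14.99 CPM. At 10 mM glucose, KDM5C was low in replicate 4, at 239.5 CPM against 254.1 to 255.6 CPM.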

How the results depend on the processing

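Counts of called members between 10 mM and 1 mM glucose were 26 higher and 18 lower, and stayed within 1.5 times these except with a 1.5-fold minimum in the test, which left 5 and 1. That minimum left 19.9% of all genes called, against 67.5% without it. The range was 25 to 27 higher and 16 to 22 lower with each library left out, where 62.8% to 70.2% of all genes were called. Between 10 mM glucose and acetate, 24 higher and 18 lower became 2 and 1 with the 1.5-fold minimum, and ranged from 22 to 26 and 17 to 20 with a library left out. All genes went from 62.8% called to 14.6% with that minimum, and ranged from 58.2% to 66.5% with a library left out. For acetate against 1 mM glucose, 4 higher and 0 lower became 7 higher with library totals, 2 with no filter, 0 with the 1.5-fold minimum and 1 with only 8 libraries. Of all genes 13.7% were called in the main test and 14.6%, 8.6%, 0.18% and 7.45% in these settings. With each library left out the members ranged from 1 to 10 higher and 0 to 4 lower, and all genes from 8.24% to 20.4% called. The members became 12 and 4 without both libraries that stood apart, 15 and 5 without the length and GC trends, and 11 and 4 with a replicate block as well. There 25.8%, 27.2% and 24.3% of all genes were called. The replicate block alone gave 26 and 18, 4 and 0, and 23 and 18 in the 3 comparisons, where 66.7%, 12.3% and 61.7% of all genes were called. Of 12 libraries, 5 correlated best with their own number. The all-gene median shifted by 0.10 for 10 mM glucose against acetate with library totals, and the share of calls that were higher went from 49.4% to 60.8% there and from 48.4% to 65.2% for acetate. KDM2A, not called for glucose at 0.09, turned to -0.0988 when length and GC trends were taken out and -0.0989 with the block too. In all 24 alternatives without a minimum fold, apart from the one on other transcripts, 33 of the 44 glucose calls, 1 of the 4 acetate calls and 33 of the 42 calls between 10 mM and acetate were kept; KDM4D and SMYD1 for glucose and SMYD1 against acetate kept theirs in the 23 that tested them. Counted on their other transcript, a setting added after seeing the data, 26 members were higher and 17 lower for glucose, 4 and 0 for acetate and 24 and 17 between 10 mM and acetate, and SUV420H1 lost its call for glucose (-0.09, adjusted p = 0.291) and against acetate (-0.01, adjusted p = 0.95). Of members not called, 11 of 12, 18 of 52 and 7 of 14 were called in at least 1. The cause of these differences was not tested. Depth was not varied, and SMYD1, with 2 to 21 reads a library, and the 3 untested members had too few reads for a firm level.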
